A study of Mus musculus with 18 samples.

Results

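The chemokine receptors described here are 7 genes, Cxcr3, Cxcr4, Cxcr6, Cx3cr1, Ccr1, Ccr2 and Ccr7, out of 19938 genes with a probe set of their own on the arrays. They were taken by name, each by the probe set that carries its symbol alone, and each had 1 such probe set. Their mRNA was measured in splenic natural killer (NK) cells of 6-week-old ICR mice that were either Runx3 +/+ (WT) or Runx3 -/- (KO), Runx3 being a transcription factor of the Runt family. Every mouse, WT or KO, had received 2 injections of complexes of interleukin-15 with its receptor alpha chain, given 2 days apart, a treatment that drives NK cells to expand. NKp46+ cells, enriched by negative selection, were sorted into 3 subsets along NK maturation. The least mature are CD27+CD11b- (called CD27 below). Those carrying both markers, CD27+CD11b+, are called DP, and the most mature, CD27-CD11b+, are called CD11b. The 6 groups of subset and genotype hold 3 arrays each. The knockout is labelled by genotype only, with no Cre line, and the labels give the sex as male or female and do not say whether animals were pooled. No mice without the injections were analysed here, so each value below is that of stimulated cells.

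Chemokine receptors are G protein-coupled receptors that steer leukocytes along gradients of chemokines. Cxcr4 binds Cxcl12 and holds immature lymphocytes in the bone marrow. Cxcr3 binds the interferon-induced ligands Cxcl9, Cxcl10 and Cxcl11, and Cxcr6 binds Cxcl16, made in the liver among other places. Ccr2 and Ccr1 answer to ligands made during inflammation. Cx3cr1, the receptor of fractalkine (Cx3cl1), marks mature NK cells, and Ccr7 leads lymphocytes into lymph nodes along Ccl19 and Ccl21. NK cells are known to change these receptors as they mature, with Cxcr3 and Cxcr6 on immature cells and Cx3cr1 on mature ones.

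Values are log2 expression from the deposited table, so a difference of 1 is a doubling. The level of one probe set cannot be set against that of another, and the members are therefore compared with themselves across groups. Differences were tested with limma over all 35399 probe sets, and a change is called where the p-value adjusted by the Benjamini-Hochberg method is under 0.05. Intervals are 95% intervals. The labels do not say that arrays of one group came from separate animals, so the p-values measure the spread between these samples.

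The arrays carried the NK genes of the sort: the mean over 11 measured NK cell markers lay between 12.52 and 12.98 on all arrays. Of the 2 sort markers Cd27 was not called between the genotypes. Itgam, the gene of CD11b, was called lower in KO for the average over subsets only, where 5.28% of all probe sets passed as lower. It read 12.30 to 12.43 in WT and 11.59 to 11.98 in KO DP cells, and 12.57 to 12.63 and 11.98 to 12.26 in CD11b cells. In CD27 cells the genotypes overlapped. Runx3 itself averaged 11.45 ± 0.05 (SD, n = 3) in WT and 10.93 ± 0.21 in KO CD27 cells. The position of its probe set relative to the deletion is not known here. KO replicate 3 stood apart. The mean over 24 measured cell cycle genes was 10.43 to 10.75 on the arrays of KO replicate 3, 7.67 to 8.49 on the other KO arrays and 7.23 to 7.47 on WT arrays. On the CD11b array of that replicate the mean over 12 neutrophil markers was 9.58, against 5.37 or less on every other array. The mean over 12 dendritic cell and MHC class II markers was 9.06 there, against 6.67 or less elsewhere. Lists of monocyte and macrophage markers (12 of 14 measured) and of B cell markers (8 of 10 measured) reached 6.53 and 6.29 on it. For scale, 1027 olfactory receptor genes had a median of 5.25 and a range of 4.80 to 5.93 between their 5th and 95th percentiles. Where leaving out KO replicate 3 ended or made a call of a member or of a pathway gene named below, its value without that replicate is given.

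**Figure D1:**
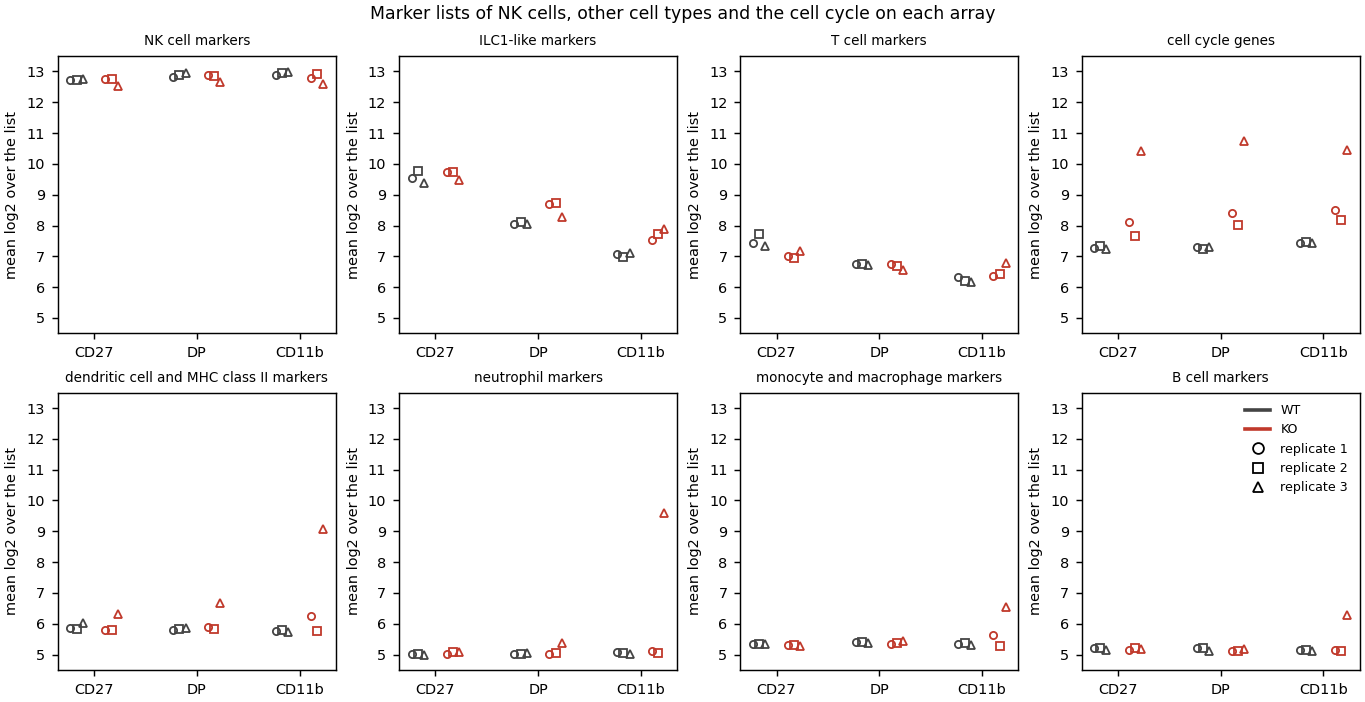
Mean log2 expression over each marker list (vertical axis) on every array, by NK subset (horizontal axis); colours give the genotype and symbols the replicate number. The triangle of KO replicate 3 lies at 10.43 to 10.75 for cell cycle genes, and in the CD11b subset at 9.58 for neutrophil markers and 9.06 for dendritic cell and MHC class II markers.

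Among the 7 receptors the clearest differences were those between maturation stages. The members were chosen with earlier results of these data known. Shares of all probe sets are therefore given for scale and are no test of the 7 as a set. Of these 7, 5 changed between CD27 and CD11b cells of WT mice, where 5.0% of all probe sets passed. Cxcr3, Cxcr4, Cxcr6 and Ccr7 were lower (2.13% of all probe sets) and Cx3cr1 was higher (2.88%) in the mature cells. In KO cells 4 changed over the same step, where 2.07% of all probe sets passed: Cxcr3, Cxcr6 and Ccr2 were lower (0.828% of all probe sets) and Cx3cr1 higher (1.25%). The arrays of CD27 and CD11b cells did not overlap for 6 of 7 members in WT and 5 of 7 in KO, against 28.3% and 15.3% of all probe sets. Between the genotypes 0 of 7 passed in the CD27 subset (0.907% of all probe sets), 0 of 7 in the DP subset (0.395%) and 2 of 7 in the CD11b subset (1.29%), Cxcr4 being higher (0.455%) and Ccr2 lower (0.836%) in KO. With limma's unadjusted p under 0.05 the numbers of members were 3, 2 and 3, where 11.6%, 9.64% and 13% of all probe sets had such a p. Averaged over the subsets, 3 of 7 passed (8.08% of all probe sets). When the 3 arrays of a sample were averaged before the test 0 of 7 passed, with 71 probe sets called in place of 2862. A sample here means the 3 arrays of 1 genotype and replicate number, and the labels do not say that these share animals. With the replicate as a random block 2 of 7 passed, with 1587 probe sets called. The members called with all arrays were the following: Cxcr4 and Cx3cr1 were higher (2.80%) and Ccr2 lower (5.28%) in KO. After cyclic loess normalization the probe sets called higher and lower were 234 and 266 in CD11b cells and 1320 and 1180 for the average, against 161 and 296 and 992 and 1870; the calls of the members and their directions were kept. The median KO-WT difference of the 7 was -0.05 in CD27, 0.04 in DP and 0.45 in CD11b cells, against -0.01, -0.01 and -0.02 over all genes. Without KO replicate 3 the counts for CD27, DP, CD11b and the average were 1, 0, 1 and 3. The 3 of the average were then Cxcr4, Ccr2 and Ccr7. Cx3cr1 no longer passed (limma adjusted p = 0.123) and Ccr7 newly passed (0.00607).

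**Figure D2:**
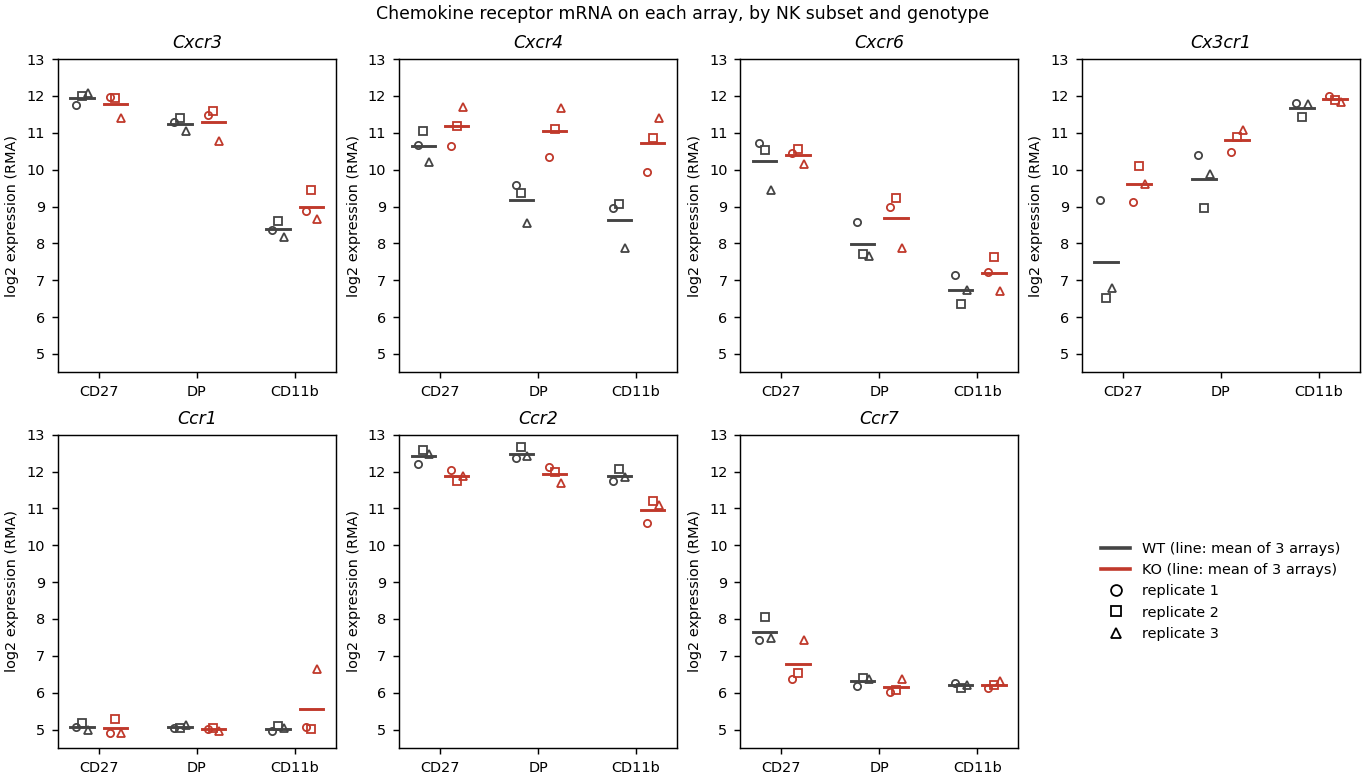
Log2 expression of the 7 receptors (vertical axis) on each of 18 arrays, by NK subset (horizontal axis); grey is WT, red is KO, symbols give the replicate number and lines the mean of 3 arrays. Cxcr4 of WT cells goes from at least 10.20 in CD27 cells to at most 9.08 in CD11b cells. In KO cells it lies at 10.64 to 11.70 in CD27 and 9.93 to 11.41 in CD11b cells. The difference between these 2 steps did not pass (limma adjusted p = 0.793).

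Cxcr4, the receptor of bone marrow retention, was lower in mature than in immature WT cells, and in mature cells it was higher in KO than in WT. It read 10.67, 11.06 and 10.20 on the WT CD27 arrays, 9.58, 9.37 and 8.54 on the WT DP arrays and 8.97, 9.08 and 7.87 on the WT CD11b arrays, for replicates 1, 2 and 3. KO arrays of the CD27 subset read 10.64, 11.19 and 11.70, those of DP 10.34, 11.11 and 11.67, and those of CD11b 9.93, 10.86 and 11.41. The genotypes overlapped in CD27 cells and did not overlap in DP or CD11b cells, where each KO array lay above each WT array (14.6% and 18.7% of all probe sets had groups that did not overlap). Replicate 3 was the lowest WT array and the highest KO array in every subset. In WT cells Cxcr4 was 4.01-fold lower in CD11b than in CD27 cells (interval 2.03 to 7.92, limma adjusted p = 0.0196). The same step in KO cells gave a log2 difference of -0.44 (interval -1.42 to 0.54, adjusted p = 0.767).

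Between the genotypes Cxcr4 was 4.27-fold higher in KO CD11b cells (interval 2.17 to 8.44, limma adjusted p = 0.0391). In DP cells the fold was 3.67 (1.86 to 7.25), which missed the threshold with an adjusted p of 0.123, and in CD27 cells the log2 difference was 0.53 (interval -0.45 to 1.52, adjusted p = 0.768). Averaged over subsets it was 2.83-fold higher (1.91 to 4.19, adjusted p = 0.00327), and the log2 difference of 1.5 became 1.20 without KO replicate 3 (adjusted p = 0.0186). Whether the genotype difference itself differed between CD11b and CD27 cells was tested directly: it was larger by 1.56 log2 in CD11b cells (0.17 to 2.95, limma adjusted p = 0.793), which did not pass. The call in CD11b cells is close to the threshold. It ended without CD27 WT replicates 1 or 2, CD27 KO replicate 2, DP WT replicate 2 or DP KO replicate 2 (adjusted p = 0.0502 to 0.0555), and without CD11b WT replicates 1, 2 or 3 (0.0707, 0.0767 and 0.166) or CD11b KO replicates 2 or 3 (0.0575 and 0.177). It also ended without all arrays of KO replicate 3 (log2 difference 1.76, adjusted p = 0.102) and with only the compared groups in the fit (0.222). Cxcr4 is also made by neutrophils and B cells, whose markers were high on the CD11b array of KO replicate 3. Replicate 1 of KO CD11b cells had neutrophil and B cell marker means of 5.10 and 5.15, at the WT level, but means of 5.62 for monocyte and macrophage markers (WT 5.30 to 5.38) and 6.25 for dendritic cell and MHC class II markers (WT 5.72 to 5.81). In replicate 2 the same means were 5.05, 5.10, 5.29 and 5.77. Both replicates lay above all 3 WT arrays in Cxcr4, and the part of other cell types in its level was not tested. When the 3 arrays of a sample were averaged first, the WT samples lay at 9.74, 9.84 and 8.87 and the KO samples at 10.31, 11.05 and 11.59, and the average did not pass (adjusted p = 0.242). In the WT step from CD27 to CD11b the call ended without CD27 WT replicates 1 or 2 or CD11b WT replicate 3 (adjusted p = 0.0562, 0.0865 and 0.0892).

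Because Runx3 was the gene deleted, the sequence around the start site of the receptors was read for the core motif of Runt factors. Promoters of 300 bases, 250 before and 50 after the start, were taken from RefSeq (GRCm38.p6, the C57BL/6J reference, not the ICR strain) and matched by symbol for 6 of the 7 members. Ccr7 was not among them. The motifs searched were TGTGGT and TGCGGT on both strands; matches can overlap by their end letter only, and 22.4% of 32851 promoters of this length hold at least 1 match. The promoter of Cxcr4 (chr1:128592250-128592549, minus strand) holds 0 matches, as does that of Ccr2 (chr9:124101933-124102232, plus strand). That of Cx3cr1 (chr9:120068247-120068546, minus strand) holds 2, as do 2.9% of all promoters (2 or more). The 3 are shown because these receptors are the ones called between the genotypes; capitals mark the motif matches, and each reads 5′ to 3′ along the gene.
Cxcr4: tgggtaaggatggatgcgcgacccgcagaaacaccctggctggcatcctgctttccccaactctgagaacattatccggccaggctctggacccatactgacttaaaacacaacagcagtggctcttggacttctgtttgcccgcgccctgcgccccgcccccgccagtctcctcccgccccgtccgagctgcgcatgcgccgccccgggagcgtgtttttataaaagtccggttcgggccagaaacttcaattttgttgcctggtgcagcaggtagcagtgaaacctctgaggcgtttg
Cx3cr1: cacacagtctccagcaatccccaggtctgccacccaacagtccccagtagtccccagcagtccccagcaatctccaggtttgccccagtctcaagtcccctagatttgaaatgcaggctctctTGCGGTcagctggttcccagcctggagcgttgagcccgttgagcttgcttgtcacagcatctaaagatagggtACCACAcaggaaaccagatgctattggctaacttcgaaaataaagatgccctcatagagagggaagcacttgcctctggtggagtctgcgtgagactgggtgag
Ccr2: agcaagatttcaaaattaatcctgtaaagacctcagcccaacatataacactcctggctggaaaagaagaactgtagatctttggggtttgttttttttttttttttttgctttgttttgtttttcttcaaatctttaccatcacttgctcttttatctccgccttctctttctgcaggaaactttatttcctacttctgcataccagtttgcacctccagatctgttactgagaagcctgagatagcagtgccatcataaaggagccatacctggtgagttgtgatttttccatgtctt
In the Cx3cr1 promoter the matches are TGCGGT on the gene's strand, from -127 to -122 relative to the start, and ACCACA, the complement of TGTGGT, from -54 to -49. Among the other members Cxcr3 holds 2 matches and Cxcr6 and Ccr1 hold 1 each. A match describes letters in this window and is no measurement of binding.

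Cx3cr1, the fractalkine receptor of mature NK cells, was the receptor that was higher in mature cells of both genotypes. In WT CD27 cells it read 9.17, 6.53 and 6.80, in WT DP cells 10.41, 8.97 and 9.87, and in WT CD11b cells 11.80, 11.42 and 11.78. In KO cells the values were 9.13, 10.09 and 9.61 in CD27, 10.47, 10.89 and 11.08 in DP and 12, 11.89 and 11.84 in CD11b cells. WT replicate 1 was far above replicates 2 and 3 in CD27 cells and overlapped the KO arrays there. In DP and CD11b cells each KO array lay above each WT array, but narrowly. The lowest KO and highest WT values were 10.47 and 10.41 in DP and 11.84 and 11.80 in CD11b cells. Groups did not overlap for 14.6% and 18.7% of all probe sets. From CD27 to CD11b cells Cx3cr1 was 18-fold higher in WT (interval 8.15 to 39.8, limma adjusted p = 0.000342) and 4.93-fold higher in KO (2.23 to 10.9, adjusted p = 0.0391). The KO-WT difference was 1.87 log2 smaller in CD11b than in CD27 cells (interval of the change -3.48 to -0.25, limma adjusted p = 0.778), which did not pass. 

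The KO-WT difference of Cx3cr1 was 2.11 log2 for the CD27 subset (interval 0.97 to 3.26, limma adjusted p = 0.0904), 1.06 for DP (-0.08 to 2.21, adjusted p = 0.559) and 0.25 for CD11b (-0.90 to 1.39, adjusted p = 0.925), and none of the 3 passed. The first passed when CD27 WT replicate 1 was left out (log2 difference 2.95, adjusted p = 0.00126). Without that array the WT steps from CD27 to DP (3.09 log2, adjusted p = 0.000787) and from DP to CD11b (1.92, adjusted p = 0.0133) passed as well, against 2.25 (0.101) and 1.92 (0.180) with it. The average over subsets was 2.20 times the WT level in KO (1.39 to 3.48, limma adjusted p = 0.0352). This call ended with any 1 array left out (adjusted p = 0.0532 to 0.0716) except replicate 1 of CD27 WT, CD27 KO, DP WT or DP KO and replicate 2 of CD11b KO. The call ended as well without KO replicate 3 (0.123), with Xist as a covariate (0.0529), with the replicate as a random block (0.0852) and with the arrays of a sample averaged first (0.316). The KO step from CD27 to CD11b ended without any of the 6 arrays compared, DP WT replicate 3, DP KO replicates 1 or 2 or any CD11b WT array (0.0521 to 0.147), and without KO replicate 3 (0.167).

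Ccr2, the receptor of the inflammatory chemokine Ccl2, was lower in KO cells of every subset by value and passed in CD11b cells. The WT arrays read 12.20, 12.59 and 12.47 in CD27, 12.37, 12.66 and 12.41 in DP and 11.73, 12.08 and 11.84 in CD11b cells. The KO arrays read 12.04, 11.75 and 11.87 in CD27, 12.11, 12 and 11.68 in DP and 10.61, 11.19 and 11.09 in CD11b cells. In each subset all KO arrays lay below all WT arrays. Groups that did not overlap, in either direction, made up 16.4%, 14.6% and 18.7% of all probe sets. Ccr2 was 1.90-fold lower in KO CD11b cells (interval 1.49 to 2.41, limma adjusted p = 0.00976). In CD27 and DP cells the log2 differences were -0.53 (-0.88 to -0.19, adjusted p = 0.165) and -0.55 (-0.90 to -0.20, adjusted p = 0.229). The average over subsets was 1.59-fold lower in KO (1.39 to 1.83, adjusted p = 0.000589). The call in CD11b cells ended without CD11b WT replicate 2 (0.0660) and with only the compared groups in the fit (0.172), and that of the average when the arrays of a sample were averaged first (0.0874). The sample means were then 12.10, 12.44 and 12.24 in WT and 11.58, 11.65 and 11.55 in KO.

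Across the stages Ccr2 did not differ between CD27 and DP cells by more than the spread in either genotype, with log2 differences of 0.06 (-0.29 to 0.40) in WT and 0.04 (-0.30 to 0.39) in KO. It was lower in CD11b cells. In KO the fold between CD27 and CD11b cells was 1.90 (1.5 to 2.41, limma adjusted p = 0.00693) and that between DP and CD11b cells 1.96 (1.54 to 2.49, adjusted p = 0.0148). In WT the same folds were 1.45 (1.14 to 1.84, adjusted p = 0.0771) and 1.51 (1.19 to 1.92, adjusted p = 0.164), which missed the threshold. The first of these WT steps passed after cyclic loess normalization (adjusted p = 0.0472) and without CD11b KO replicate 1 (0.0392), which changes only the estimate of the spread. Of the KO steps, that from DP ended without DP KO replicates 1 or 2 or CD11b KO replicate 1 (0.105, 0.0772 and 0.0757), and both ended with only the compared groups in the fit (0.338 and 0.135). The interval of the difference between the genotype effects in CD11b and CD27 cells ran from -0.88 to 0.10 log2.

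Cxcr3, the receptor of interferon-induced chemokines, was lower in CD11b cells than in both earlier stages in each genotype. It read 11.76, 12 and 12.08 in WT CD27 cells, 11.29, 11.41 and 11.05 in WT DP cells and 8.36, 8.60 and 8.17 in WT CD11b cells. In KO the values were 11.98, 11.95 and 11.39 in CD27, 11.47, 11.60 and 10.79 in DP and 8.88, 9.44 and 8.66 in CD11b cells. In WT cells the 3 subsets did not overlap, and in both genotypes all CD11b arrays lay more than 1 log2 unit below all DP arrays. From DP to CD11b cells Cxcr3 was 7.32-fold lower in WT (5.17 to 10.4, limma adjusted p = 3.08e-05) and 4.89-fold lower in KO (3.46 to 6.93, adjusted p = 0.000484). From CD27 to CD11b cells it was 11.9-fold lower in WT (8.39 to 16.8, adjusted p = 1.10e-06) and 6.87-fold lower in KO (4.85 to 9.72, adjusted p = 2.76e-05). The step from CD27 to DP cells gave -0.70 in WT (-1.20 to -0.20, adjusted p = 0.328) and -0.49 in KO (-0.99 to 0.01, adjusted p = 0.892). The KO step from DP to CD11b did not pass with only the compared groups in the fit (0.181).

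The genotypes did not differ in Cxcr3 beyond their spread in CD27 cells (log2 difference -0.17, interval -0.68 to 0.33) or DP cells (0.04, -0.47 to 0.54). In CD11b cells the 3 KO arrays lay above the 3 WT arrays, with a difference of 0.62 (0.12 to 1.12, limma adjusted p = 0.268) that did not pass. The arrays of these 2 groups did not overlap for 18.7% of all probe sets. The order of the group means was CD27 WT at 11.95 ± 0.17 (SD, n = 3), CD27 KO at 11.77 ± 0.33, DP KO at 11.29 ± 0.43, DP WT at 11.25 ± 0.18, CD11b KO at 8.99 ± 0.40 and CD11b WT at 8.38 ± 0.22. Neighbours among the first 4 groups overlapped in their values, and the one gap of more than 2 log2 units lay between the DP and the CD11b groups.

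Cxcr6, the receptor of Cxcl16 and a gene of tissue-resident lymphocytes, was lower at each later stage. The WT arrays read 10.73, 10.52 and 9.46 in CD27, 8.57, 7.71 and 7.66 in DP and 7.14, 6.35 and 6.74 in CD11b cells. The KO arrays read 10.46, 10.55 and 10.14, 8.98, 9.23 and 7.87, and 7.23, 7.64 and 6.71 for the same subsets. No 2 subsets of a genotype overlapped, whereas the genotypes overlapped in every subset. From CD27 to CD11b cells Cxcr6 was 11.3-fold lower in WT (6.25 to 20.3, limma adjusted p = 0.000126) and 9.14-fold lower in KO (5.07 to 16.5, adjusted p = 0.000594). In WT the first step, from CD27 to DP, was 4.77-fold (2.65 to 8.61, adjusted p = 0.0191), and 0.557% of all probe sets passed in it. The second WT step was 2.36-fold (1.31 to 4.26, adjusted p = 0.286). In KO the 2 steps were 3.23-fold (1.79 to 5.83, adjusted p = 0.270) and 2.83-fold (1.57 to 5.10, adjusted p = 0.167). With the replicate within a genotype as a random block, which pairs arrays of 1 genotype, the second KO step passed (adjusted p = 0.0416). It also passed with the fixed block (0.0342), which joins WT and KO arrays of 1 number as well, and without DP KO replicate 3 (0.0478). The call of the first WT step ended without CD27 WT replicates 1 or 2 or DP WT replicates 2 or 3 (0.0673, 0.101, 0.0848 and 0.0929) and with only the compared groups in the fit (0.177).

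The KO-WT differences of Cxcr6 were 0.15 (-0.70 to 1.0) in CD27, 0.71 (-0.14 to 1.56) in DP and 0.45 (-0.40 to 1.30) in CD11b cells, and none passed (limma adjusted p = 0.955, 0.605 and 0.720). The mean over 12 ILC1-like markers, a list of genes of innate lymphocytes related to NK cells, went the same way over the subsets. It was 9.37 to 9.76 in WT CD27, 8.04 to 8.10 in WT DP and 6.99 to 7.12 in WT CD11b cells, and 9.49 to 9.74, 8.27 to 8.72 and 7.52 to 7.90 in KO. Of the 12 genes, 10 were lower in CD11b than in CD27 cells of each genotype, where 2.13% (WT) and 0.828% (KO) of all probe sets passed as lower. Itga1 and Itgae did not pass, and Itgae read 5.36 to 5.47 in WT CD27 and 5.54 to 5.72 in WT CD11b cells. The part of ILC1-like cells in the levels of Cxcr6 was not tested. In sorted bulk cells a smaller share of expressing cells and less RNA per cell cannot be told apart.

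**Figure D3:**
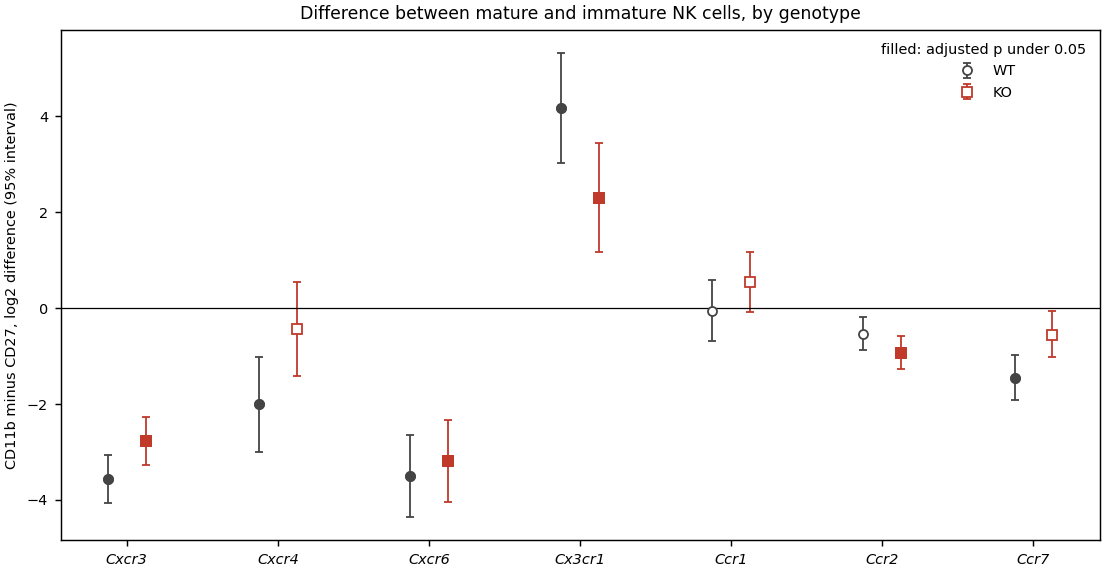
Log2 difference of CD11b minus CD27 cells (vertical axis, points, with 95% intervals as bars) for each receptor in WT (grey) and KO (red); filled symbols passed at an adjusted p under 0.05. Cxcr4 lies at -2.0 in WT and -0.44 in KO, and Cx3cr1 at 4.17 and 2.30.

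Ccr7, the lymph node homing receptor, was above the level of the other groups in immature WT cells. It read 7.43, 8.04 and 7.48 in WT CD27 cells, 6.19, 6.40 and 6.38 in WT DP cells and 6.27, 6.12 and 6.21 in WT CD11b cells. KO CD27 cells read 6.36, 6.52 and 7.43, and the other 6 KO arrays lay between 6.03 and 6.37. The DP and CD11b values of both genotypes lay close above 5.93, the 95th percentile of the olfactory receptor genes, which limits the folds below. Of the KO CD27 arrays only replicate 3 reached the WT range. Ccr7 was 2.51-fold lower in WT DP than in WT CD27 cells (1.80 to 3.49, limma adjusted p = 0.0138) and 2.72-fold lower in WT CD11b than in WT CD27 cells (1.96 to 3.79, adjusted p = 0.00142). In KO the CD11b-CD27 difference was -0.55 (-1.02 to -0.07, adjusted p = 0.294). The KO-WT difference in CD27 cells was -0.88 (-1.36 to -0.40, adjusted p = 0.0908), which missed the threshold. Without CD27 KO replicate 3 it was -1.21 and passed (adjusted p = 0.00433), and so did the average over subsets (-0.45, adjusted p = 0.00741, against -0.34 and 0.134 with it). With the 3 arrays of KO replicate 3 left out, these values were -1.21 (0.00453) and -0.50 (0.00607). The call from CD27 to DP in WT ended without CD27 WT replicate 2 (0.0774) or DP WT replicates 1 or 3 (0.0729 and 0.0501), and with only the compared groups in the fit (0.114).

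T cell markers moved with Ccr7 only in part. The mean over 10 measured T cell markers (of 12) was 7.35 to 7.74 on WT CD27 arrays and 6.94 to 7.16 on KO CD27 arrays. On all arrays of the later subsets it was 6.18 to 6.77. In WT it was 6.71 to 6.75 in DP and 6.18 to 6.34 in CD11b cells. Over that step Ccr7 differed by -0.12 log2 (limma adjusted p = 0.979). Cd3e, a chain of the T cell receptor complex, read 10.49, 11.09 and 8.14 on the WT CD27 arrays and 6.39, 6.69 and 7.65 on the KO CD27 arrays. Replicate 3 was the highest KO array of Cd3e, as of Ccr7. Other chains went differently: Cd3d read 9.38, 9.93 and 10.58 in WT and 9.0, 8.51 and 8.42 in KO, and Cd3g 12.23, 12.26 and 12.62 in WT and 12.24, 12 and 11.48 in KO, both lowest in KO replicate 3. Cd4 was higher on each KO array (6.19, 5.65 and 6.71) than on the WT arrays (4.95, 5.06 and 4.90). Cd5, Cd6, Cd8b1 and Themis of this list read 4.70 to 6.34 on all arrays of the series, Cd8a 5.41 to 6.92 and Lat 9.51 to 10.60. The genes of the list thus went different ways, and its mean is no measure of T cell content. Ccr7 is abundant in naive T cells, and the part of T cells in its level was not tested.

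Ccr1, a receptor of inflammatory chemokines that is abundant in neutrophils and monocytes, read between 4.90 and 5.28 on 17 of the 18 arrays, within the range of the olfactory receptor genes. The exception was the CD11b array of KO replicate 3, at 6.63, the array on which neutrophil markers averaged 9.58. The KO-WT difference in CD11b cells was 0.54 (-0.08 to 1.17, limma adjusted p = 0.466), and 0.02 without that array. Ccr1 changed in none of the comparisons run on it.

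**Figure D4:**
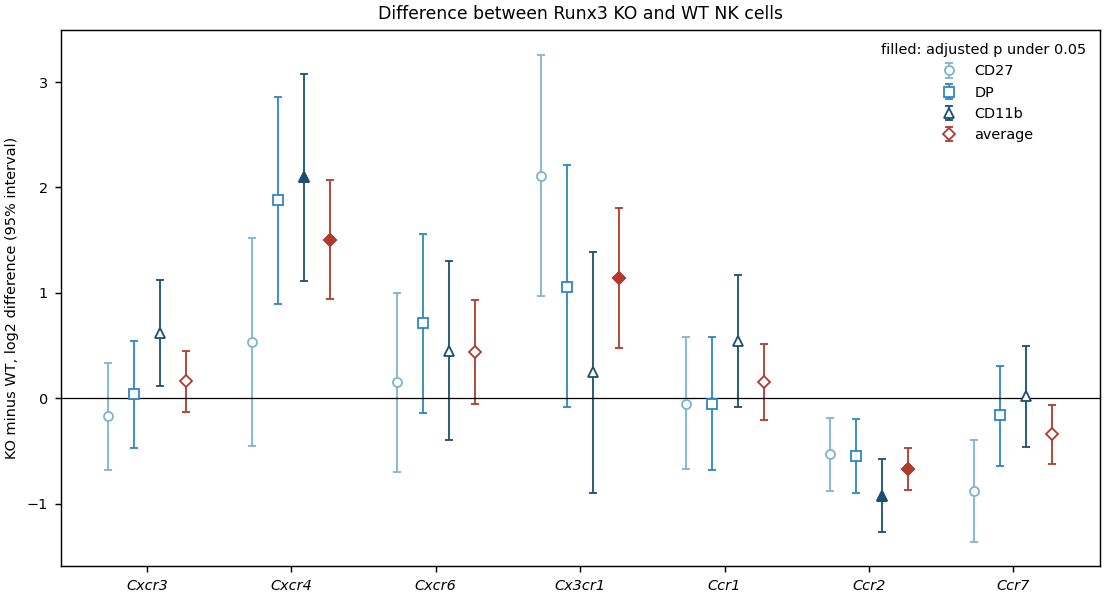
Log2 difference of KO minus WT (vertical axis, points, with 95% intervals as bars) for each receptor in CD27, DP and CD11b cells and as the average over the subsets; filled symbols passed at an adjusted p under 0.05. Cxcr4 and Ccr2 are filled in CD11b cells, at 2.10 and -0.93, and Cxcr4, Cx3cr1 and Ccr2 for the average, at 1.5, 1.14 and -0.67.

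The remaining stage comparisons called few members. From CD27 to DP in WT, 2 of 7 passed (Cxcr6 and Ccr7, both lower), where 0.557% of all probe sets passed, 0.339% as lower, and 4 of 7 did not overlap against 15.4%. From DP to CD11b, 1 of 7 passed in WT (Cxcr3, lower), where 0.525% of all probe sets passed and 0.218% as lower. In KO 2 of 7 passed (Cxcr3 and Ccr2, lower), where 0.514% passed and 0.232% as lower. The groups of this step did not overlap for 4 of 7 members in each genotype, against 16.2% of all probe sets in WT and 11.7% in KO. From CD27 to DP in KO 0 of 7 passed by limma (0.0198% of all probe sets), 3 of 7 having an unadjusted p under 0.05 against 5.66% of all probe sets, and 2 of 7 did not overlap against 10.1%. With the replicate as a random block, 3 of 7 passed from DP to CD11b in KO, and the probe sets called in the KO steps were 27 from CD27 to DP, 363 from DP to CD11b and 1506 from CD27 to CD11b, against 7, 182 and 734. The difference of the genotype effect between CD11b and CD27 cells passed for 0 of 7 members (0.0367% of all probe sets), with an unadjusted p under 0.05 for 4 of 7 against 6.02% of all probe sets. These 4 were Cxcr3 (0.79 log2), Cxcr4 (1.56), Cx3cr1 (-1.87) and Ccr7 (0.90), with limma adjusted p-values of 0.682 to 0.795. Over all 3 subsets the moderated F test passed for 0 of 7 (0.0113% of all probe sets), with an unadjusted p under 0.05 for 1 of 7, Ccr7, against 4.18%.

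Other genes of the chemokine system were read from lists made for the pathway. Among 13 measured further receptors, 1 rose and 1 fell in KO CD27 cells, and 0 passed in DP or CD11b cells. The list is one of chemokine receptors but also holds Cmklr1 and Gpr183, whose ligands are not chemokines. The gene that rose was Cmklr1, the receptor of chemerin, at 8.65, 7 and 7.73 in WT and 9.32, 9.62 and 8.93 in KO CD27 cells. It was 2.83-fold higher in KO (limma adjusted p = 0.0355). Cmklr1 also rose from CD27 to CD11b cells in WT, by 6.36-fold (adjusted p = 0.000132), and in KO the fold was 2.30 (adjusted p = 0.0638). Cxcr5, the receptor of B cell follicles, read 4.95, 5.79 and 5.47 in WT and 4.85, 4.6 and 4.65 in KO CD27 cells, 1.63-fold lower in KO (adjusted p = 0.0436) and at or below 5.79 on all arrays, a level that olfactory receptor genes reach. The call of Cxcr5 ended without KO replicate 3 (log2 difference -0.68, adjusted p = 0.0976), with Xist as a covariate (0.0512), with the compared groups alone (0.340) and with any 1 array left out (0.0518 to 0.147) except CD27 WT replicate 1, DP KO replicate 3 and CD11b KO replicate 3. That of Cmklr1 was kept without KO replicate 3 (0.0464). It ended with the compared groups alone (0.304), without CD27 WT replicates 2 or 3 or CD27 KO replicates 1 or 2 (0.10 to 0.121) and without DP KO replicate 1, CD11b WT replicates 1 or 3 or CD11b KO replicate 1 (0.0502 to 0.0535). The medians of this list were 0.04, 0.08 and 0.06 in CD27, DP and CD11b cells. Of 5 atypical receptors, which scavenge chemokines, 0 passed in any single subset by limma. Ackr4 differed by -0.47 in CD11b cells (adjusted p = 0.0692). Over the average of the subsets it fell by 0.28 log2 (adjusted p = 0.0201), where 5.28% of all probe sets passed as lower. That call ended without KO replicate 3 (0.0725), with the random block (0.0842) and with the arrays of a sample averaged first (0.146). Ackr4 read 6.24 on CD11b WT replicate 3 and 5.24 to 5.93 on the other arrays, within the range of the olfactory receptor genes. Ackr3, also called Cxcr7 and a second receptor of Cxcl12, was not called either.

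Among 17 measured ligands of the members, Ccl9, a ligand of Ccr1, rose in KO CD11b cells and the other 16 did not pass. Ccl9 read 7.70, 8.05 and 7.47 in WT and 9.09, 8.56 and 9.57 in KO CD11b cells, 2.52-fold higher in KO (1.80 to 3.52, limma adjusted p = 0.00827). The KO arrays had the order of their monocyte and macrophage marker means, which were 5.62, 5.29 and 6.53 for replicates 1, 2 and 3, against 5.30 to 5.38 in WT; the part of such cells in Ccl9 was not tested. Without KO replicate 3 the log2 difference was 1.08 (adjusted p = 0.0399), and with only the compared groups in the fit the call ended (0.198). Of 25 genes of receptor signalling and migration, 1 fell in KO CD11b cells and 0 passed in the other subsets. It was Gng2, a gamma subunit of the G proteins these receptors use, at 9.92, 9.62 and 9.80 in WT and 8.68, 8.99 and 8.79 in KO, 1.95-fold lower (adjusted p = 0.0177). This call ended without CD11b WT replicates 1 or 3 or CD11b KO replicates 1 or 3 (0.0771, 0.0690, 0.0848 and 0.0725) and with only the compared groups (0.0693). Averaged over the subsets, 4 of the 25 genes, Gng2 among them, were lower in KO, where 5.28% of all probe sets passed as lower. Of 13 measured genes of receptor desensitisation, Grk6, a kinase that phosphorylates activated receptors, fell by 0.28 log2 in KO CD27 cells (adjusted p = 0.0447) and the others did not pass in any subset. The call of Grk6 lies at the threshold. It ended without KO replicate 3 (0.0763), after cyclic loess (0.0811), with the filter on the mean (0.0619), with a robust prior (0.0774), with the compared groups alone (0.249) and with the fixed replicate block (0.0514). It also ended with any 1 array left out (0.0502 to 0.136) except DP WT replicate 1 and DP KO replicates 2 and 3. Averaged over the subsets, 1 of the 13 desensitisation genes was higher and 3 were lower in KO, against 2.80% and 5.28% of all probe sets. None of 5 egress genes passed between the genotypes. S1pr1, which leads lymphocytes out of tissues, differed by 0.57, 0.86 and 0.71 log2 in CD27, DP and CD11b cells (limma adjusted p = 0.842, 0.695 and 0.718), and its WT CD27 arrays alone ran from 7.43 to 9.92. Cd69, which opposes S1pr1, differed by 0.10, 0.13 and -0.33. The share of list genes called is to be read against 0.907%, 0.395% and 1.29% of all probe sets in the 3 subsets.

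The genes whose log2 values followed each receptor most closely over the 18 arrays, by Pearson's r, were as follows; all points share arrays, subsets and genotypes, so these are descriptions. Cxcr3 was followed by Tapbpl (r = 0.988), a protein of MHC class I peptide loading, Carmil2 (0.976) and the GTPase Gimap7 (0.974). Cxcr4 was followed by Tnfrsf22 (0.914), a decoy receptor of the TNF family, Lypla1 (0.877) and the elongation factor Tcea1 (0.874). For Cxcr6 these were 3 genes of the TNF and TNF receptor families, Tnfsf10 (TRAIL, 0.948), Tnfsf8 (CD30 ligand, 0.936) and Tnfrsf25 (0.929). For Cx3cr1 they were Cdc20b (0.961), Cmklr1 (0.958) and Flna (filamin A, 0.952). Ccr2 was followed by the kinase Map3k8 (0.951), Rragb (0.938) and Septin6 (0.935), and Ccr7 by Cd3e (0.927), Camk4 (0.926) and Kit (0.924). Ccr1 gave Bst1 (0.986), C3ar1 (0.986) and Olfm4 (0.982), with Spearman's rho of 0.711, 0.626 and 0.697, and its values vary on 1 array only. Among the members themselves the highest r was that of Cxcr3 with Cxcr6 (0.861) and the lowest that of Cx3cr1 with Ccr7 (-0.807).

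Of the 7 receptors, 3 lie close together on mouse chromosome 9. In the RefSeq gene table (GRCm38.p6) the protein-coding genes from Cxcr6 to Ccr2 run Cxcr6, Xcr1, Ccr1, Ccr1l1, Ccr3 and Ccr2, with 4 genes between the outer ones. Cx3cr1 is on the same chromosome, with 53 protein-coding genes between it and Cxcr6. The cluster did not move as a block: Cxcr6 was lower at each stage, Ccr2 was lower in CD11b cells and in KO, and Ccr1 stayed at the level given above. Ccr3 read 5.02 to 5.36 on all arrays. Xcr1 read 5.34 to 6.05 on 17 arrays and 6.45 on the CD11b array of KO replicate 3. Ccr9, just outside this stretch, read 4.90 to 5.56 on 17 arrays and 9.17 on that same array.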

How the data were processed

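Splenic NK cell RNA of 18 samples was measured on Affymetrix arrays after WT-cDNA labelling, per the labels' protocols. The authors deposited log2 expression values that came from RMA and Partek, per the submitters' processing notes; versions and the log base are not given in the sources used here, and log2 was taken from the range (3.91 to 14.96; array medians 6.27 to 6.35). RMA equalises the arrays' distributions, so a change of most genes in one direction would not be seen. The series text names CD11c for one subset where the sample labels name CD11b; the sample labels were followed. Arrays have no read depth, and the 3 arrays per group limit the precision; the median SD within groups was 0.141 log2.

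Probe sets were named through the platform annotation table: 21789 have 1 symbol, 1621 several and 11989 are not listed there. Symbols were checked by gene identifier against RefSeq for 21698, with 0 changed. All 35399 were tested. A gene with several probe sets was represented by that with the highest mean. With limma 3.58.1 in R 4.3.3, 1 mean per group was fitted to 18 arrays (12 residual degrees of freedom) and contrasts were tested after eBayes moderation; p-values are two-sided and adjusted by Benjamini-Hochberg. Named genes were the 7 members, the 3 genes most correlated with each, up to 4 genes per pathway list that passed between genotypes in a subset (2 by size where none did), and marker genes; the procedure was checked on simulated data. The members and lists were chosen with earlier results of these data known. List genes for which no probe set carried the symbol alone were not analysed here. No member had a second probe set.

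Alternatives were cyclic loess, a robust prior with an intensity trend, a filter keeping probe sets over the median of all means, the compared groups alone, Xist as a covariate (the labels do not separate the sexes), arrays of a sample averaged first, the replicate number as a fixed block, the replicate within a genotype as a random block (statmod 1.5.0), leaving out each array, and leaving out KO replicate 3. The fixed block is shared by the genotypes and so joins WT and KO arrays of 1 number. Pairing by replicate number was judged from the correlation of arrays after subtracting their group means: within KO all 9 same-numbered pairs gave r of 0.213 to 0.642, within WT r ran from -0.009 to 0.456, and WT and KO arrays of 1 number in 1 subset gave -0.073 to 0.190. Of the 9 WT pairs 8 were over 0.1 (median 0.323, against -0.149 for other numbers), 1 short of the rule that each pair be over 0.1, so the numbers were taken to pair the KO arrays and the WT pairing is unsettled.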

Additional observations from a re-analysis of the deposited data

How the results depend on the processing

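Of 2109 values of a member under an alternative, 2031 kept their side of the threshold, 64 lost it, 14 gained it and 0 called values changed direction; of 1615 that were uncalled either way, 30 changed sign. The cause was not tested except where fewer arrays or probe sets entered the fit.

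Probe sets called between KO and WT in CD27, DP and CD11b cells were 321, 140 and 457. With only the compared groups in the fit they were 14, 17 and 34, and with the replicate number as a fixed replicate block 526, 274 and 802. Xist as a covariate gave 285 in DP, 972 in CD11b cells and 4377 for the average over subsets (2862), which became 1587 with the random replicate block and 71 with the arrays of a sample averaged first. For the WT steps CD27 to DP, DP to CD11b and CD27 to CD11b (197, 186 and 1771), the random replicate block gave 397, 489 and 3012. The compared groups alone gave 5 and 73 for the first 2 of these and leaving out KO replicate 3 gave 310 and 318, and the fixed block gave 294 for the second. For the KO steps in that order (7, 182 and 734), the random block gave 27, 363 and 1506. The compared groups alone gave 3 for the second and 146 for the third. Leaving out KO replicate 3 gave 0 for the first and 119 for the second, and the first became 25 with the fixed block and 15 among probe sets above the median mean. The change of the KO-WT difference from CD27 to CD11b cells (13) became 7 with that filter, 2 with the compared groups, 28 and 42 with the fixed and random blocks and 8 without KO replicate 3. The test over 3 subsets (4) became 1 with the filter and 21 with the random block.

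Members called with only the compared groups in the fit were 0 for KO against WT in CD11b cells (2 otherwise), 0 for CD27 to DP in WT (2) and 0 for DP to CD11b in KO (2). Averaging the arrays of a sample first gave 0 for the average over subsets (3). Without KO replicate 3 the count was 1 in CD27 cells (0) and 1 in CD11b cells (2). The random replicate block also brought the WT steps of Cx3cr1 from CD27 to DP (adjusted p = 0.0264) and of Ccr2 from CD27 to CD11b (0.0366) under the threshold; of the 9 same-numbered WT pairs 8 correlate by over 0.1, so whether WT arrays are paired is unsettled.

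Leaving out each array in turn gave 0 to 1, 0 to 0, 0 to 2 and 2 to 3 members called between the genotypes in CD27, DP and CD11b cells and on average, and 117 to 365, 46 to 199, 182 to 1094 and 1959 to 3519 probe sets. For the WT steps CD27 to DP, DP to CD11b and CD27 to CD11b it gave 0 to 2, 1 to 2 and 4 to 6 members and 81 to 208, 72 to 222 and 1052 to 1957 probe sets. For the KO steps it gave 0 to 0, 1 to 3 and 3 to 4 members and 0 to 24, 44 to 266 and 377 to 754 probe sets. For the change of the KO-WT difference it gave 0 members throughout, with 4 to 19 probe sets from CD27 to CD11b and 2 to 14 over 3 subsets. Signals near those of olfactory receptor genes, as for Ccr1, limit what could be seen.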
